A study of Mus musculus with 8 samples.

Results

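The kinesin motor genes of the mouse left ventricle were described in 8 RNA-seq libraries, 4 from control mice and 4 from mice given angiotensin II (ANG II), a peptide hormone that raises blood pressure. Members were the rows of the deposited expression table whose gene name has the kinesin family form (Kif or Kifc, a number and at most a letter), which gave 42 of 55679 genes. All 8 mice were male wild-type C57BL/6J animals, and a small pump under the skin delivered saline (control) or ANG II at 1500 ng/kg/min for 7 days, with their age not given. The heart was flushed with saline before the left ventricle was taken, so each library is the RNA of a whole piece of ventricle from muscle, connective tissue, vessel and immune cells together. The libraries held 14455654 to 16564828 fragments. Values are FPKM (fragments scaled by the length of the transcript and by the size of the library), so levels of different genes can be set side by side per length.

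Kinesins are motor proteins that burn ATP to walk along microtubules or to shorten them at their ends. Some members work mainly when a cell divides: they push the spindle poles apart, hold chromosomes at the spindle equator and organise the midzone where the cell is pinched apart, and the cell cycle switches their genes on. Others carry vesicles, mitochondria and ciliary proteins in cells that do not divide, and the adult heart muscle cell, which seldom divides, relies on such transport along its microtubules. The 42 genes were accordingly divided into 12 mitotic kinesins, 17 transport kinesins and 13 others, and the comparison asked how the mitotic members differed between ANG II and control beside the transport members.

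The mitotic kinesins were low in control ventricles, and the 10 of 12 that passed the test were higher after ANG II by 2.73 to 10.1 times in mean FPKM, whereas the summed level of the transport kinesins, which made up most kinesin RNA, overlapped between the groups. Calls required an adjusted p under 0.05 and a log2 fold change of FPKM + 1 above 0.5 in size (limma, Benjamini-Hochberg over the 19364 genes whose mean reached 0.1 FPKM). Of the 12 mitotic kinesins, all were tested, 10 were called higher and 0 lower, where 14.0% of all tested genes were called higher, 1.41% lower and 15.4% in either direction. Of the 17 transport kinesins, 16 were tested, 5 were called higher and 0 lower. Of the 13 others, 10 were tested, and 1 was called higher and 0 lower. The median log2 fold change was 1.11 over the 12 mitotic genes, 0.23 over the 16 tested transport genes and 0.24 over the 10 tested others, beside 0.15 over all genes tested. Relative to that shift of all genes, the lists stood 0.96, 0.08 and 0.10 above the middle. In ventricle tissue, more dividing cells and more of these RNAs per cell cannot be told apart.

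**Figure D1:**
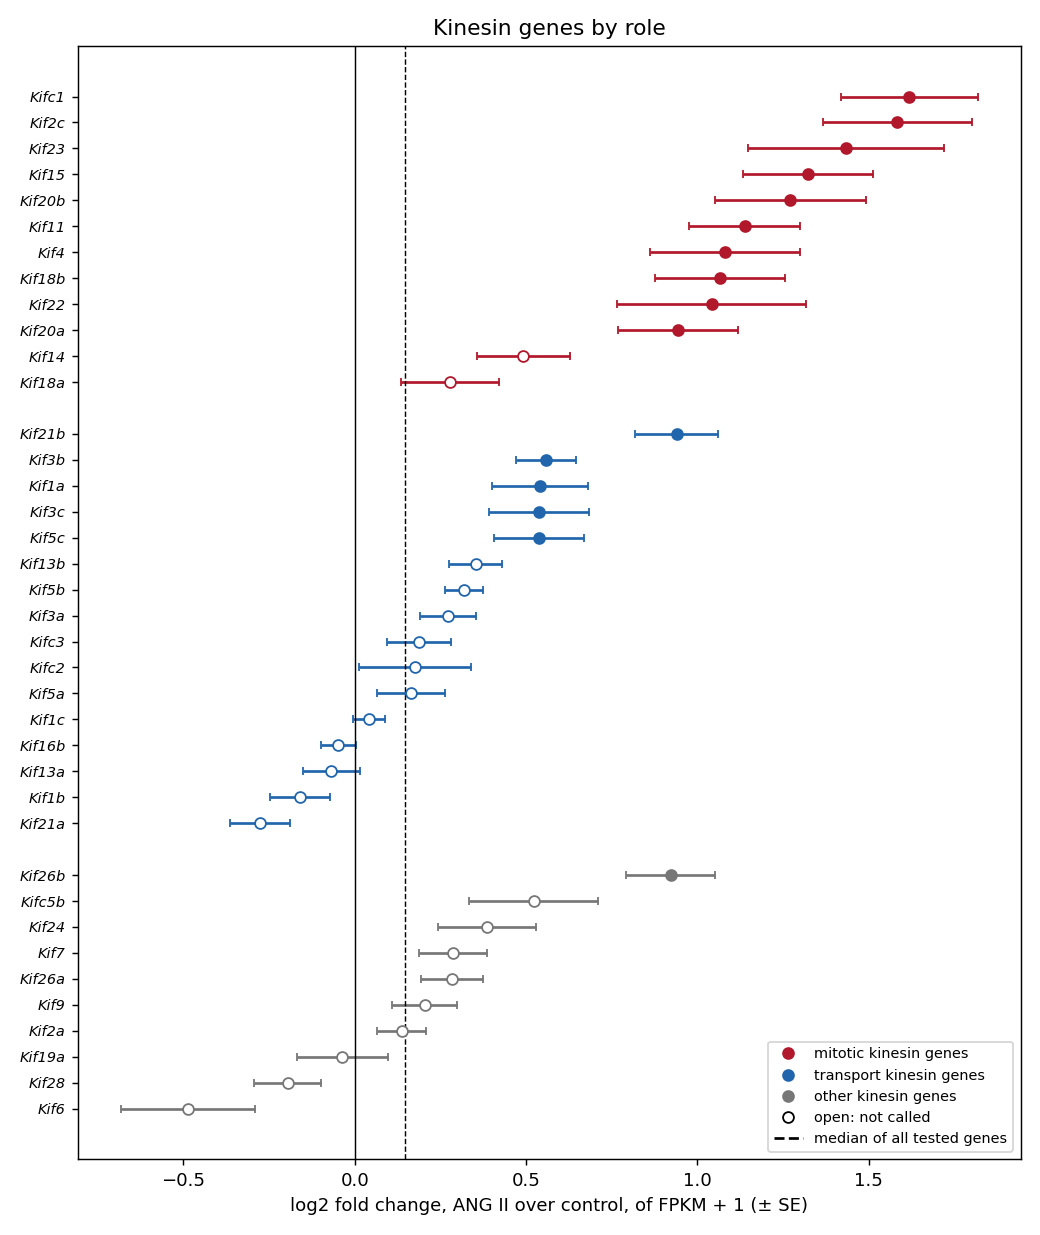
The horizontal axis is the log2 fold change of FPKM + 1, ANG II over control, for the 38 tested kinesin genes; points are estimates, bars are 1 standard error, filled points were called, and the dashed line is the median of all tested genes (0.15). All 12 mitotic genes (red) lie right of that line, and the transport genes (blue) lie from -0.28 to 0.94. With median-of-ratios scaling the transport genes Kif1c and Kifc3 and the other gene Kif2a change from above to below 0. With quantile normalization the transport gene Kifc2 and the other gene Kif26a do so as well.

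Summed over the 12 mitotic genes, the level was 11.8, 9.58, 9.55 and 5.75 FPKM in the control libraries 1 to 4, and 49.3, 38.4, 38.8 and 20.3 FPKM in the ANG II libraries 1 to 4. Every ANG II library was thus above every control library, and library 4 was the lowest in each group. The 17 transport genes summed to 504 to 532 FPKM in control and 501 to 589 FPKM in ANG II, and these ranges overlapped. The mitotic genes were 1.08 to 2.17% of all kinesin FPKM in control and 3.34 to 7.86% in ANG II. In all 8 libraries the same 4 genes, Kif1c, Kif5b, Kif13a and Kif1b, were the highest, and together they were 77.2 to 79.2% of kinesin FPKM in control and 71.2 to 74.9% in ANG II.

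**Figure D2:**
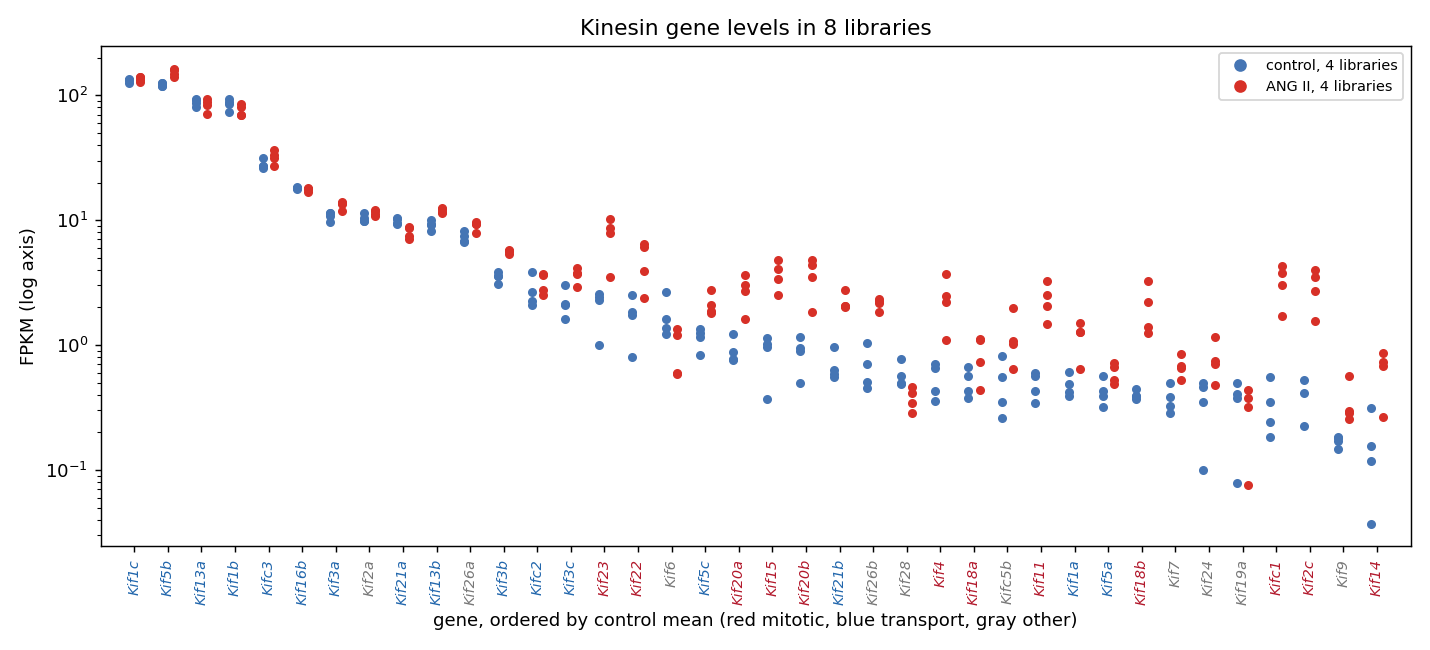
FPKM on a log axis of the 38 tested kinesin genes in 4 control (blue) and 4 ANG II (red) libraries, a point per library, with genes ordered by their control mean; a value of 0 (Kif2c in control 3) is not drawn. The 6 genes with the highest control means are all transport kinesins, and the red points of most mitotic genes stand above the blue ones.

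Kifc1, Kif2c and Kif11 act on the shape of the spindle. Kifc1 is a motor that walks to the minus end and gathers microtubules at the poles. It was at 0.557, 0.184, 0.243 and 0.351 FPKM in the control libraries 1 to 4 and at 3.76, 4.29, 3.02 and 1.72 FPKM in ANG II, 0.334 ± 0.164 FPKM (SD, n = 4) in control, against 3.20 ± 1.11 FPKM (SD, n = 4) with ANG II (log2 fold change 1.62, SE 0.199, adjusted p = 0.000261). The ANG II libraries were all above the control libraries, on 4 to 12 fragments in control and 41 to 102 in ANG II; every gene without overlap between the groups had the smallest p of the exact two-sided permutation test, 0.0286. A part of its reads could also belong to Kifc5b, since 38.6% of the 50-base words in Kifc1 transcripts occur in Kifc5b. Kif2c, which shortens microtubules at centromeres and so frees wrongly attached chromosomes, was at 0.415, 0.528, 0 and 0.224 FPKM in control, against 3.50, 2.69, 4.02 and 1.56 FPKM in ANG II (log2 fold change 1.58, SE 0.217, adjusted p = 0.000481). Control library 3 had no fragment of Kif2c, where a count of 0 allows up to 3 fragments, and the highest control library had 9. Kif11 slides the spindle poles apart. It was at 0.592, 0.431, 0.562 and 0.346 FPKM in control, against 3.24, 2.05, 2.50 and 1.48 FPKM in ANG II (log2 fold change 1.14, SE 0.161, adjusted p = 0.000576), again without overlap.

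Kif15 backs up Kif11 in keeping the spindle bipolar. It was at 1.02, 0.962, 1.14 and 0.367 FPKM in control, against 4.82, 4.10, 3.39 and 2.51 FPKM in ANG II (log2 fold change 1.32, SE 0.190, adjusted p = 0.000619), and the ANG II library 4 was the lowest of its group and still above every control library. Kif18b trims the microtubules that reach from the poles to the cell edge. Its control values were close together (0.448, 0.369, 0.391 and 0.388 FPKM), and ANG II libraries were at 3.27, 1.39, 2.21 and 1.25 FPKM (log2 fold change 1.07, SE 0.189, adjusted p = 0.00204). Kif18a, which damps the movement of chromosomes at the spindle equator, was not called, with 0.670, 0.569, 0.376 and 0.430 FPKM in control, against 1.12, 0.738, 0.435 and 1.10 FPKM in ANG II (log2 fold change 0.28, SE 0.143, adjusted p = 0.168). Its groups overlapped, since ANG II library 3 was within the control range.

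Kif4 and Kif22 are chromokinesins, which bind DNA. Kif4 was at 0.650, 0.354, 0.709 and 0.430 FPKM in control, against 3.72, 2.21, 2.45 and 1.09 FPKM in ANG II (log2 fold change 1.08, SE 0.219, adjusted p = 0.00416), and the groups did not overlap. Kif22 was at 2.53, 1.83, 1.75 and 0.798 FPKM in control, against 6.50, 6.08, 3.94 and 2.39 FPKM in ANG II (log2 fold change 1.04, SE 0.276, adjusted p = 0.0159). The groups of Kif22 overlapped, as control library 1 was above ANG II library 4 (exact two-sided permutation test, p = 0.0571, where 0.0286 is the smallest that 4 against 4 allows), and its call was lost with quantile normalization and without ANG II library 1 or 2. The study had chosen Kif22 among its candidate genes from sequencing of this experiment, so its direction here is not independent evidence.

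Kif23, Kif20a, Kif20b and Kif14 organise the midzone and the last step of division. Kif23, which with Racgap1 forms the centralspindlin complex, had the highest ANG II mean of the mitotic members. It was at 2.43, 2.56, 2.30 and 1.01 FPKM in control, against 10.2, 7.95, 8.58 and 3.49 FPKM in ANG II (log2 fold change 1.43, SE 0.287, adjusted p = 0.00389). In both groups library 4 was well below the other three libraries, and the groups did not overlap. Kif20a, which brings the Aurora B kinase complex to the midzone, was at 1.22, 0.779, 0.763 and 0.881 FPKM in control, against 3.61, 2.72, 3.01 and 1.61 FPKM in ANG II (log2 fold change 0.94, SE 0.174, adjusted p = 0.00255). For Kif20a, 29.3% of the exon bases lie under a gene on the opposite strand, and whether fragments were counted by strand was not stated. Kif20b, needed for the final cut between daughter cells, was at 0.939, 0.895, 1.15 and 0.493 FPKM in control, against 4.81, 3.53, 4.39 and 1.83 FPKM in ANG II (log2 fold change 1.27, SE 0.221, adjusted p = 0.00184). Kif14, which binds Prc1 at the midbody, was the lowest mitotic member, with 0.315, 0.117, 0.155 and 0.0372 FPKM in control, against 0.732, 0.678, 0.866 and 0.267 FPKM in ANG II (log2 fold change 0.49, SE 0.136, adjusted p = 0.0194). It stayed just under the fold threshold on the scale of FPKM + 1, its ANG II library 4 was below control library 1, and it was called with a pseudocount of 0.1.

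**Figure D3:**
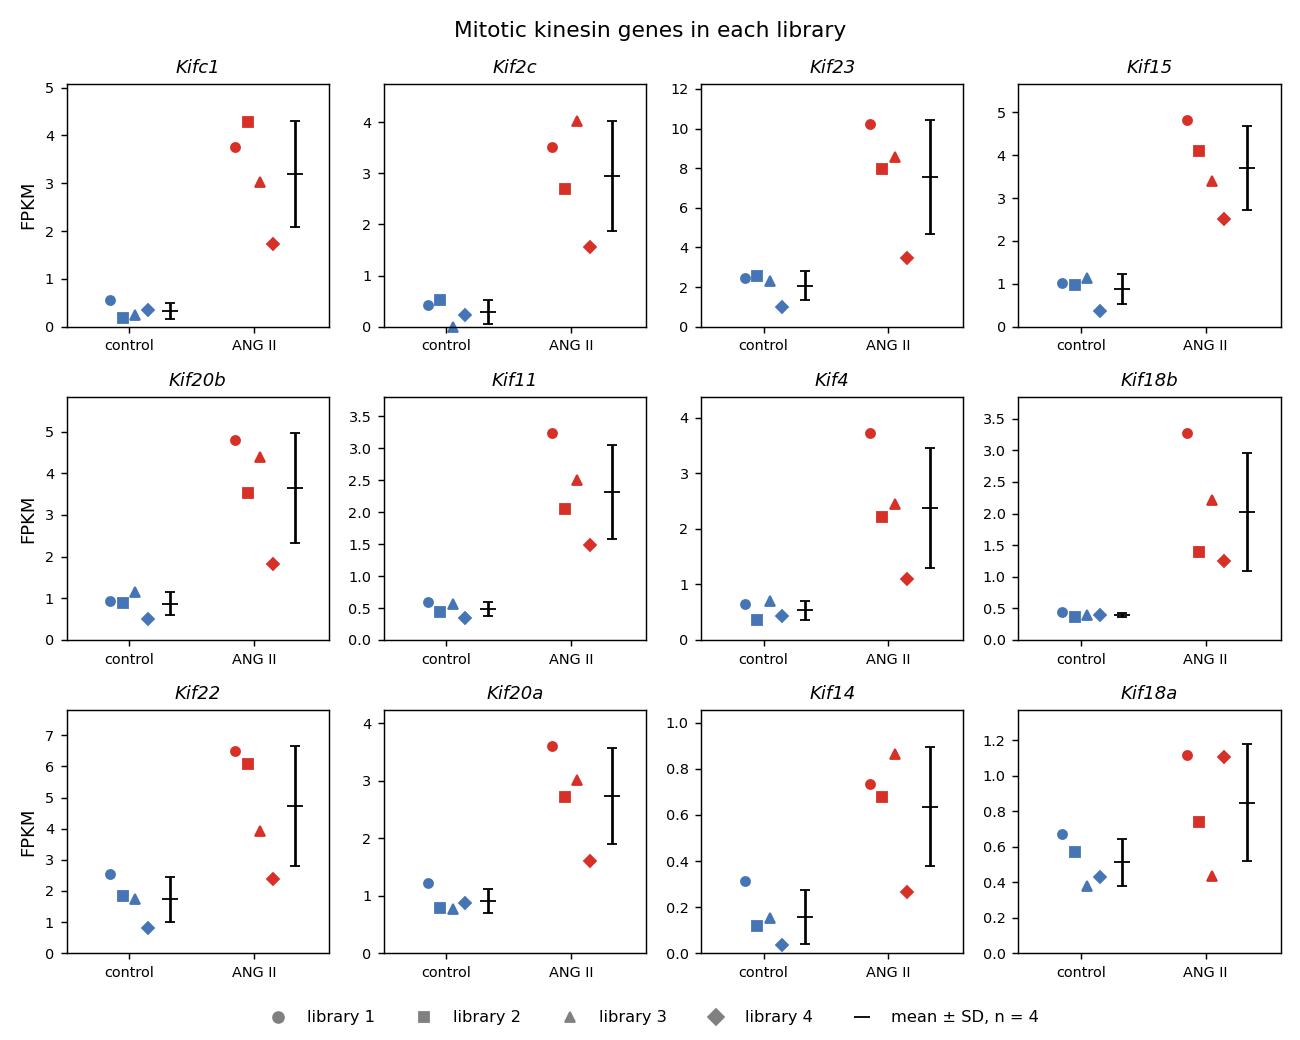
FPKM of the 12 mitotic kinesin genes in each library, a panel per gene with its own axis from 0; shapes are the libraries 1 to 4 of each group, and the bars are mean ± SD (n = 4). Control and ANG II points do not overlap for 9 genes and overlap for Kif22, Kif14 and Kif18a; ANG II library 4 (red diamond) is the lowest ANG II point in 11 of 12 panels.

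The ratio of mean FPKM, which does not carry the added 1, was 10.1 for Kif2c, 9.58 for Kifc1, 5.09 for Kif18b and 4.80 for Kif11, and at the lower end 2.73 for Kif22 and 1.66 for Kif18a. The order of the fold changes thus differs with the scale: Kif23 came next after Kifc1 and Kif2c on the scale of FPKM + 1, and its ratio was 3.64. With voom on the recovered fragments, which adds no FPKM, 11 mitotic genes were called and their median log2 fold change was 2.07, beside 0.23 over all genes, of which 18.9% were called higher and 2.01% lower. For 9 of the 12 genes the groups did not overlap and ANG II was higher, where 28.7% of all tested genes had that pattern.

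ANG II library 4 stood apart from the other ANG II libraries in these genes. It was the lowest ANG II library in 11 of 12 mitotic genes, beside 21.3% of all tested genes and 1 of the 16 tested transport genes. The median ratio of its level to the mean of the other ANG II libraries was 0.462 over the mitotic genes and 1.05 over the transport genes. Control library 4 was the lowest control library in 6 of 12 mitotic genes, beside 28.6% of all tested genes and 7 of the 16 tested transport genes. Without both libraries, 11 mitotic genes were called higher (Kif14 was added), where 12.6% of all genes were called higher. The depth of ANG II library 4, 15976070 fragments, was within the range of the other libraries.

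Most mitotic genes had a known cell cycle motif near their start site. A pair of short motifs that are known from cell cycle promoters were looked for on both strands in windows of 300 bases around the start site (RefSeq, GRCm38.p6): TTTGAA, the core of the cell cycle homology region, and CCAAT, to which the NF-Y factor binds; a match of the one can share at most an end base with a match of the other. TTTGAA was in 10 of the 11 mitotic windows (Kif20a had no window) and in 17.9% of 32851 promoters. It was in 1 of 11 windows of transport genes, that of Kif1a, and in 3 of 11 of the others. CCAAT was in 7 mitotic windows, 3 transport windows and 6 others, and in 37.4% of all promoters. Both motifs were in 7 mitotic windows, 0 transport windows and 3 others, and in 6.95% of all promoters. Between 50 bases before the start site and the end of the window, TTTGAA was in 8 of the 11 mitotic windows and in 4.94% of all promoters. A match shows letters and not a bound site.

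The 80 bases before the RefSeq start site are shown for called mitotic genes with and without TTTGAA in these bases, for the called Kif26b and Kif3b, and for Kif1c, the highest kinesin gene of control ventricle. All are printed 5′ to 3′ on the strand of the gene, with a match of TTTGAA (or its complement TTCAAA) and of CCAAT (or its complement ATTGG) in capitals.
Kif11 (chr19:37376302-37376381, + strand): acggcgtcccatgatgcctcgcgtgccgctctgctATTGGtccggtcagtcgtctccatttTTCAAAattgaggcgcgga
Kif15 (chr9:122951001-122951080, + strand): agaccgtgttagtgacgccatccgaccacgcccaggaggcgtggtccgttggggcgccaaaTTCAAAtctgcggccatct
Kif22 (chr7:127042421-127042500, - strand): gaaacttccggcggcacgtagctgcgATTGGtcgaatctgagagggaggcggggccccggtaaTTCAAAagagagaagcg
Kifc1 (chr17:33890634-33890713, - strand): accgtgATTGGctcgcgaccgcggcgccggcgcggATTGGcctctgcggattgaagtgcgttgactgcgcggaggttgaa
Kif26b (chr1:178529045-178529124, + strand): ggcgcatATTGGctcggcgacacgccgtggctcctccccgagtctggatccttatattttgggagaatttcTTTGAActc
Kif3b (chr2:153291336-153291415, + strand): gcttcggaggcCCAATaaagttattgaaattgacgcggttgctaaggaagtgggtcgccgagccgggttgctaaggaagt
Kif1c (chr11:70700468-70700547, + strand): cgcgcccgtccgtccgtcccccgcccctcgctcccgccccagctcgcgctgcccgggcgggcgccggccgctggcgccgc
In Kif11 and Kif22 an ATTGG stands before a TTCAAA that lies just ahead of the start site. In Kif15 the TTCAAA stands there alone, and Kifc1 has a pair of ATTGG and its TTTGAA match just after the start site, outside the printed bases. Kif26b has an ATTGG and a TTTGAA. Kif1c has neither in these bases, and Kif3b has a CCAAT only.

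Most genes that work with the mitotic kinesins were higher in ANG II as well. Of 20 genes of the spindle, the midzone and proliferation, 17 were called higher and 0 lower, beside 14.0% and 1.41% of all tested genes, and their median log2 fold change was 1.49, beside 0.15 over all genes. On the scale of FPKM + 1 the members with the largest change were Top2a, which untangles DNA before chromosomes part (log2 fold change 2.05, SE 0.281, adjusted p = 0.000475), Mki67, a marker of cycling cells (log2 fold change 1.88, SE 0.260, adjusted p = 0.000496), Racgap1, the partner of Kif23 (log2 fold change 1.82, SE 0.284, adjusted p = 0.000976), and Anln, a scaffold of the contractile ring (log2 fold change 1.81, SE 0.243, adjusted p = 0.000412). With voom the order differed, and Psrc1, a spindle protein named after its values were seen, came first, at 0.318 ± 0.274 FPKM (SD, n = 4) in control, against 3.54 ± 1.29 FPKM (SD, n = 4) with ANG II. Cenpe, a kinesin that carries chromosomes to the equator but is not named Kif, was at 0.855 ± 0.242 FPKM (SD, n = 4) in control, against 4.81 ± 2.43 FPKM (SD, n = 4) with ANG II (log2 fold change 1.55, SE 0.291, adjusted p = 0.00284). The 3 genes that were not called were Ckap5 and Numa1, which also have uses outside division, with log2 fold changes of 0.09 and 0.04, and Cenpf, a kinetochore protein, at 8.85 ± 2.94 FPKM (SD, n = 4) in control, against 6.02 ± 1.13 FPKM (SD, n = 4) with ANG II. Cenpf was called lower with median-of-ratios scaling, quantile normalization and without control library 4. ANG II library 4 was the lowest ANG II library in 17 of these 20 genes, and control library 4 the lowest control library in 17.

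**Figure D4:**
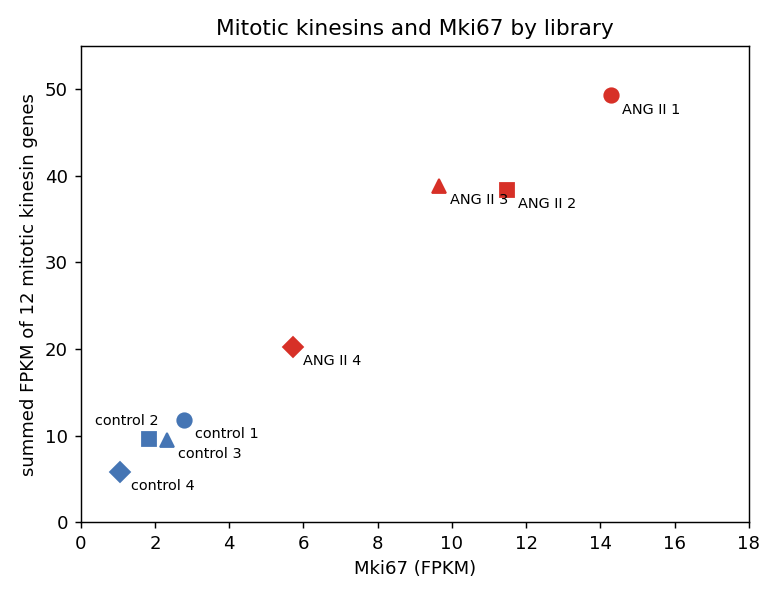
Summed FPKM of the 12 mitotic kinesin genes (vertical axis) against Mki67 in FPKM (horizontal axis), a point per library, with control in blue and ANG II in red. Control libraries lie at 1.06 to 2.80 FPKM of Mki67 and 5.75 to 11.8 FPKM of mitotic kinesins, and ANG II libraries at 5.71 to 14.3 and 20.3 to 49.3; ANG II library 4 is the ANG II point nearest to the controls.

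Mki67 was at 2.80, 1.84, 2.33 and 1.06 FPKM in the control libraries and at 14.3, 11.5, 9.66 and 5.71 FPKM in ANG II. Library 4 was the lowest of its group in Mki67 as in the summed mitotic kinesins. Since the libraries fall into separate groups, no correlation over all 8 was computed.

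Several lists of cell type markers also differed between the groups, and their part in the result was not tested. Their called counts stand beside 14.0% higher and 1.41% lower of all tested genes. The summed level of 7 fibroblast genes was between 398 and 577 FPKM in control libraries and between 2311 and 2734 FPKM in ANG II, with 7 of 7 called higher. The rise was uneven. The means of Col1a1, Col1a2 and Postn were 64.7, 67.2 and 33.2 FPKM in control and 608, 588 and 667 FPKM in ANG II. Those of Pdgfra, Dcn, Lum and Tcf21 were 19.3, 293, 28.9 and 4.46 FPKM in control and 31.4, 489, 98.9 and 7.89 FPKM in ANG II. The sum of 7 macrophage genes was between 142 and 176 FPKM in control and between 351 and 467 FPKM in ANG II, with 7 of 7 called higher. The 8 ventricular muscle genes, which mark the labelled tissue, summed to 47364 to 48303 FPKM in control and 35506 to 38203 FPKM in ANG II, with 2 called lower. Of 6 endothelial genes 2 were called higher (351 to 372 FPKM in control, 402 to 459 FPKM in ANG II), and of 6 red cell genes 5 were called higher (96.8 to 487 FPKM and 581 to 2084 FPKM). Of 5 atrial genes 4 were tested and 2 called higher (7.72 to 58.5 FPKM and 195 to 339 FPKM), with Bmp10 at 0 in all control libraries. These counts depend on the scaling. Under median-of-ratios scaling 6 fibroblast, 7 macrophage and 1 atrial gene were called higher, 5 ventricular muscle genes lower and 0 endothelial genes either way. Of all genes, 8.63% were called higher and 4.15% lower under that scaling. Under quantile normalization 5 fibroblast, 7 macrophage and 1 atrial gene were called higher, 1 ventricular muscle gene lower and 0 endothelial genes either way. The shares of all genes were then 7.31% higher and 5.08% lower. ANG II library 4, which was low in the mitotic genes, was within the range of the other ANG II libraries in the fibroblast sum (2317 FPKM) and the macrophage sum (383 FPKM). It was below them in ventricular muscle (35506 FPKM against 36068 to 38203), endothelial (402 against 416 to 459), red cell (581 against 975 to 2084), atrial (195 against 227 to 339), neuron (9.69 against 10.2 to 12.9) and adipocyte genes (0.0683 against 1.00 to 3.17), and above them in T cell genes (11.8 against 6.44 to 10.4).

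**Figure D5:**
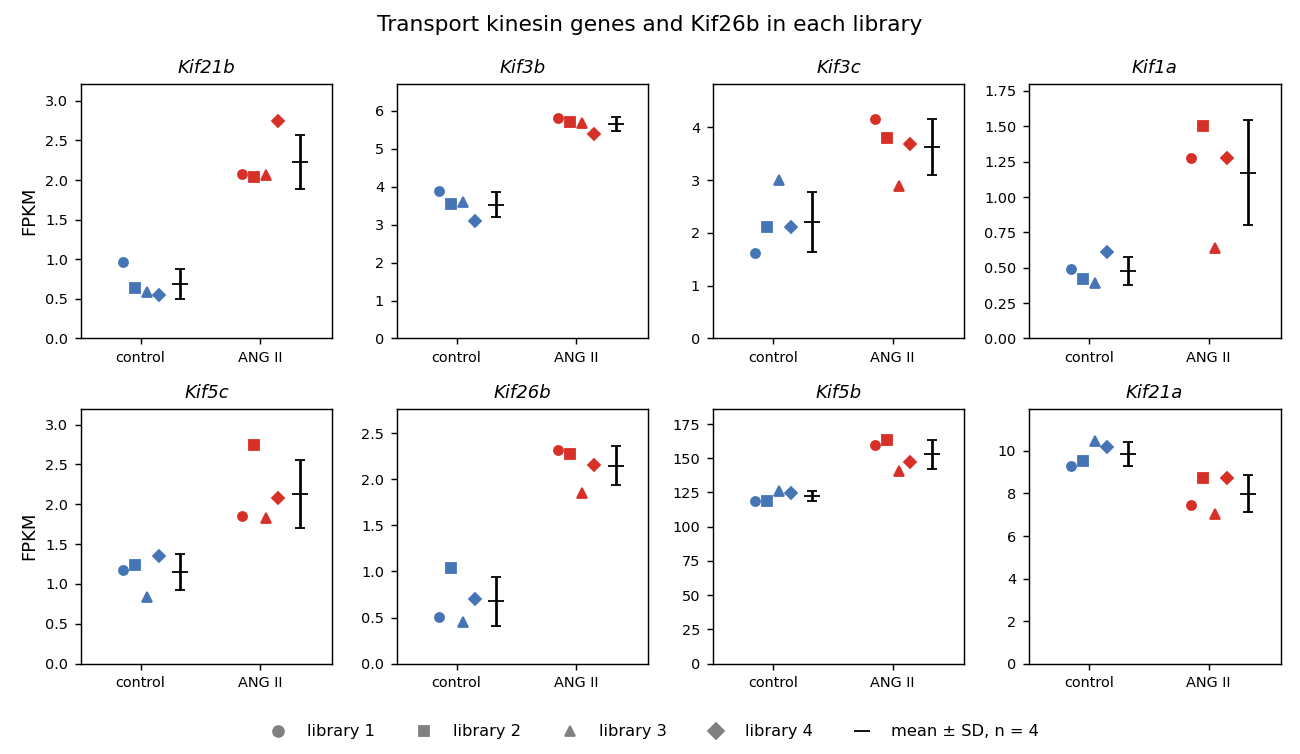
FPKM in each library of the 5 called transport kinesin genes, of the called Kif26b, and of Kif5b and Kif21a, which passed the adjusted p but not the fold threshold; each panel has its own axis from 0, shapes are libraries 1 to 4, and bars are mean ± SD (n = 4). The groups overlap for Kif3c and do not overlap in the other 7 panels; Kif21a is the panel in which ANG II is lower.

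Among the transport kinesins, most of the abundant genes did not pass the test on the deposited scale. Kif1c, a motor for Golgi-derived vesicles, was at 131 ± 3.68 FPKM (SD, n = 4) in control, against 135 ± 5.64 FPKM (SD, n = 4) with ANG II (log2 fold change 0.04, SE 0.0464, adjusted p = 0.523). Kif13a and Kif16b carry endosomes, and Kif1b carries mitochondria and vesicle precursors. Kif13a was at 87.9 ± 5.13 FPKM (SD, n = 4) in control, against 84.1 ± 9.48 FPKM (SD, n = 4) with ANG II, Kif1b at 85.1 ± 8.25 FPKM (SD, n = 4) in control, against 76.1 ± 7.71 FPKM (SD, n = 4) with ANG II and Kif16b at 18.2 ± 0.314 FPKM (SD, n = 4) in control, against 17.5 ± 0.558 FPKM (SD, n = 4) with ANG II. None of these 4 was called, and their groups overlapped. With median-of-ratios scaling the log2 fold changes of Kif1c, Kif16b, Kif13a and Kif1b were -0.19, -0.26, -0.29 and -0.39. All 4 then passed the adjusted p in the lower direction and none the fold threshold, where 13.1% of all genes passed the adjusted p with a lower and 14.6% with a higher value. Kif5b, the conventional kinesin that is present in most cells, was the exception among the abundant genes. It was at 119, 119, 126 and 124 FPKM in control, against 159.6, 163, 141 and 147 FPKM in ANG II, without overlap. Its log2 fold change of 0.32 passed the adjusted p of limma (adjusted p = 0.00189) and not the fold threshold, and it was 0.09 with median-of-ratios scaling.

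The 5 transport genes that were called were all low, with control means from 0.479 to 3.53 FPKM. Kif21b, a motor of neurons and immune cells that also slows microtubule growth, was at 0.966, 0.632, 0.587 and 0.554 FPKM in control, against 2.07, 2.03, 2.06 and 2.75 FPKM in ANG II (log2 fold change 0.94, SE 0.121, adjusted p = 0.000342). The groups did not overlap, and ANG II library 4 was the highest. Kif3b, which forms the ciliary kinesin-2 motor with Kif3a, was at 3.88, 3.55, 3.59 and 3.09 FPKM in control, against 5.82, 5.71, 5.68 and 5.39 FPKM in ANG II (log2 fold change 0.56, SE 0.0872, adjusted p = 0.00100). Values within each group lay close together and did not overlap. Kif3a itself was at 10.8 ± 0.869 FPKM (SD, n = 4) in control, against 13.3 ± 1.04 FPKM (SD, n = 4) with ANG II and was not called (log2 fold change 0.27, SE 0.0813, adjusted p = 0.0272), though its groups did not overlap. Kif3c, the alternative partner of Kif3a in neurons, was at 1.63, 2.11, 3.00 and 2.12 FPKM in control, against 4.16, 3.79, 2.90 and 3.68 FPKM in ANG II (log2 fold change 0.54, SE 0.145, adjusted p = 0.0175), and control library 3 was above ANG II library 3 (exact two-sided permutation test, p = 0.0571). For Kif3c, 40.7% of the exon bases lie under a gene on the opposite strand, and the same share was 27.5% for Kifc3, 20.3% for Kif7, 19.2% for Kif2a and 15.1% for Kif4.

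Kif1a and Kif5c are known as motors of axons. Kif1a was at 0.492, 0.420, 0.390 and 0.613 FPKM in control, against 1.28, 1.50, 0.641 and 1.27 FPKM in ANG II (log2 fold change 0.54, SE 0.139, adjusted p = 0.0142), and its ANG II library 3 was just above the highest control library. Kif5c was at 1.17, 1.24, 0.831 and 1.35 FPKM in control, against 1.86, 2.75, 1.82 and 2.08 FPKM in ANG II (log2 fold change 0.54, SE 0.130, adjusted p = 0.0104), without overlap. Kif5a, the remaining conventional kinesin and likewise neuronal, was at 0.427 ± 0.103 FPKM (SD, n = 4) in control, against 0.598 ± 0.111 FPKM (SD, n = 4) with ANG II and was not called. Of 7 neuron marker genes 4 were tested, 2 were called higher and 1 lower (14.0% and 1.41% of all tested genes), the sum of the 7 was 5.99 to 7.81 FPKM in control and 9.69 to 12.9 FPKM in ANG II, and Syt1 and Th were at 0 in all control libraries; their part in the values of Kif1a and Kif5c was not tested.

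Under median-of-ratios scaling, which moves the median of all genes to 0.0042, Kif21b was the transport gene still called, and 8.63% of all genes were called higher and 4.15% lower. Kif3b, Kif1a and Kif5c, with log2 fold changes of 0.37, 0.44 and 0.40 there, kept an adjusted p under 0.05 and went under the fold threshold, while Kif3c, at 0.37, passed neither. Mitochondrially encoded genes took 26.3 to 27.0% of the fragments in control and 19.2 to 21.8% in ANG II. Without these genes and the 10 most abundant ones, 3 transport genes were called (Kif21b, Kif1a and Kif5c), beside 12.1% of all genes called higher and 3.42% lower. Without ANG II library 2, the calls of Kif1a and Kif5c were lost, which left 3. Without ANG II library 4 and control library 4, those of Kif1a and Kif3c were lost, which also left 3. Across these settings the mitotic count stayed between 9 and 11 of 12.

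Of the other tested transport genes, Kif21a was the lowest in fold change. Kif21a, which slows microtubule growth, was at 9.30, 9.51, 10.5 and 10.2 FPKM in control, against 7.47, 8.72, 7.02 and 8.75 FPKM in ANG II (log2 fold change -0.28, SE 0.0870, adjusted p = 0.0338). All ANG II libraries were below all control libraries, where 5.06% of tested genes had that pattern. Its change did not reach the fold threshold as deposited and did with quantile normalization, where it was called lower as were 5.08% of all genes, with 7.31% higher. It was also called lower by voom with median-of-ratios library sizes, where 5.56% of all genes were called lower and 11.5% higher. Kif13b, a motor for membrane scaffolds, was at 9.16 ± 0.788 FPKM (SD, n = 4) in control, against 11.95 ± 0.563 FPKM (SD, n = 4) with ANG II (log2 fold change 0.35, SE 0.0762, adjusted p = 0.00586), without overlap and below the fold threshold. Kifc3, at 28.0 ± 2.21 FPKM (SD, n = 4) in control, against 32.1 ± 4.05 FPKM (SD, n = 4) with ANG II, and Kifc2, at 2.70 ± 0.787 FPKM (SD, n = 4) in control, against 3.15 ± 0.608 FPKM (SD, n = 4) with ANG II, both overlapped between groups and were not called. Kif17 had 0 to 3 fragments per library, which is at or under the floor of 3 fragments, and was not tested.

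Genes that link kinesins to their cargo, or that build the opposite motor dynein, were close to all genes in their median. The list held 36 names for 35 genes, as Kifbp and Kif1bp are the same gene. All 35 were in the expression table and 33 were tested. Of these, 2 were called higher and 0 lower (14.0% and 1.41% of all tested genes). Their median log2 fold change was 0.21, which is 0.07 above that of all genes and turns to -0.01 with median-of-ratios scaling. The called genes were Dynll1, a dynein light chain that also binds many other proteins (log2 fold change 1.07, SE 0.109, adjusted p = 9.32e-05), and Mapk8ip1, a scaffold that ties kinesin-1 to its cargo (log2 fold change 0.62, SE 0.127, adjusted p = 0.00438). The call of Mapk8ip1 was lost with median-of-ratios scaling. A further 14 passed the adjusted p without reaching the fold threshold, all with higher values in ANG II, where 28.4% of all genes passed the adjusted p with a higher and 4.91% with a lower value. This direction rests on the scaling. Under median-of-ratios scaling 3 of the 33 genes passed the adjusted p with a higher and 11 with a lower value. Of all genes, 14.6% passed it with a higher and 13.1% with a lower value under that scaling. Under quantile normalization the counts were 4 and 8, where 12.6% of all genes passed it with a higher and 15.3% with a lower value.

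Of the 13 remaining kinesins, Kif26b was called. Kif26b is a kinesin without motor activity that acts in Wnt5a signalling and cell adhesion. It was at 0.507, 1.04, 0.451 and 0.701 FPKM in control, against 2.32, 2.27, 1.85 and 2.16 FPKM in ANG II (log2 fold change 0.92, SE 0.129, adjusted p = 0.000551). The groups did not overlap, and it was called under 21 of 22 other settings, losing its call where a log2 fold change above 1 was required, as 3.96% of all genes had in the higher and 0.145% in the lower direction. Its relative Kif26a was at 7.26 ± 0.704 FPKM (SD, n = 4) in control, against 9.05 ± 0.781 FPKM (SD, n = 4) with ANG II and was not called (log2 fold change 0.28, SE 0.0906, adjusted p = 0.0366). Kif2a, a depolymerase of the Kif2c family that also acts outside division, was at 10.4 ± 0.772 FPKM (SD, n = 4) in control, against 11.5 ± 0.560 FPKM (SD, n = 4) with ANG II and was not called. Kif6 was lower in the mean, with 1.61, 2.68, 1.22 and 1.36 FPKM in control, against 1.21, 0.593, 0.584 and 1.34 FPKM in ANG II (log2 fold change -0.49, SE 0.195, adjusted p = 0.0824), and its groups overlapped. It was called lower with median-of-ratios and quantile scaling.

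The other tested genes of this set had a mean under 1 FPKM and are given to account for every member. Kifc5b, the close copy of Kifc1, was at 0.496 ± 0.249 FPKM (SD, n = 4) in control, against 1.18 ± 0.574 FPKM (SD, n = 4) with ANG II and was not called (log2 fold change 0.52, SE 0.189, adjusted p = 0.0588), with 36.6% of its 50-base words shared with Kifc1. Kif7, a regulator of hedgehog signalling in cilia, was at 0.373 ± 0.0904 FPKM (SD, n = 4) in control, against 0.676 ± 0.134 FPKM (SD, n = 4) with ANG II, and Kif9, a motor of cilia and sperm tails, at 0.170 ± 0.0157 FPKM (SD, n = 4) in control, against 0.353 ± 0.145 FPKM (SD, n = 4) with ANG II. Neither was called, although their groups did not overlap. Kif28 was at 0.578 ± 0.135 FPKM (SD, n = 4) in control, against 0.376 ± 0.0792 FPKM (SD, n = 4) with ANG II, lower in all ANG II libraries and not called. Kif24, which shortens ciliary microtubules, was at 0.351 ± 0.178 FPKM (SD, n = 4) in control, against 0.769 ± 0.279 FPKM (SD, n = 4) with ANG II, and Kif19a, which limits the length of cilia, at 0.339 ± 0.181 FPKM (SD, n = 4) in control, against 0.304 ± 0.160 FPKM (SD, n = 4) with ANG II, with overlap in both. Kif27 and Kif12 were below the filter on low values, with at most 6 and 1 fragments in a library, and Kif2b was listed at 0 in all 8 libraries. With voom, Kif7 and Kifc5b were called higher, and with voom on median-of-ratios library sizes Kif28 was called lower.

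Over the 42 members, 19 had all ANG II libraries above all control libraries and 2, Kif21a and Kif28, had all below. By role the 19 were 9 of 12 mitotic, 7 of 16 transport and 3 of 10 other genes among those tested, beside 28.7% of all tested genes above and 5.06% below. With median-of-ratios scaling 15 were above and 5 below, beside 15.3% and 13.9% of all genes, and with quantile normalization 12 were above and 5 below, beside 13.1% and 16.4%. The mitotic genes had 9 above and 0 below under both, and the transport genes had 4 above and 3 below, then 2 above and 3 below. Among the 38 tested members, those called higher spanned chromosomes X, 1, 2, 4, 7, 9, 11, 12, 17, 18 and 19 (GENCODE M21, GRCm38).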

How the data were processed

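RNA-seq of 4 control and 4 ANG II left ventricles was used, with samples grouped by their treatment labels; the study states more biological replicates per group, and the others were not analysed here. The authors deposited FPKM values per gene, 1 column per library without pooling; the submitters' processing notes name HISAT, Bowtie2 and RSEM, and the genome build, annotation and use of strand are not given in the sources used here. Gene IDs were matched to GENCODE M21 (GRCm38), where all 42 members had a position. FPKM times the mean transcript length fell on whole fragments for 99.3% of single-exon and 97.8% of multi-exon values under 60 fragments (tolerance 0.05), which gave the depth of each library, 14455654 to 16564828 fragments. Limits from counts cover counting error only.

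The 19364 genes whose mean reached 0.1 FPKM were tested on log2(FPKM + 1) with limma 3.58.1 in R 4.3.3 (eBayes with a variance trend, all 8 libraries, no covariate) and Benjamini-Hochberg adjustment. The adjusted p threshold of 0.05 and the log fold change threshold of 0.5 are those the study names; the pseudocount and the filter were choices of this work. A fold change on this scale understates the change of low genes. The exact permutation test for single genes was two-sided and ran over 70 allocations. The fit was tested on simulated data, where it missed most of the smaller changes and most changes of genes under 1 FPKM, so a gene that was not called is not shown to be unchanged. The simulation gave all genes the same spread between libraries beyond counting error, whereas real genes differ in spread. The share of changes it missed is therefore not that of the real data. P-values measure the spread between these samples, which may be partly technical. Python 3.11.15 was used for the other steps.

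The members, their roles and the lists were chosen with earlier results of these data known. Named were all mitotic and transport members, the other members called or with a mean of at least 1 FPKM, up to 4 called genes of each partner list with the largest change, Cenpe and Mki67; further kinesins and the uncalled spindle genes are named to account for their lists. Of the tested genes of the other marker lists, 2 of 6 T cell, 0 of 5 B cell, 3 of 3 neutrophil (5 listed), 1 of 6 smooth muscle, 1 of 5 Schwann cell and 0 of 3 adipocyte genes (4 listed) were called higher, beside 14.0% of all tested genes. Alternatives changed the pseudocount, filter, scaling, variance trend, replicate block, threshold and test, or left out libraries; the removal of both libraries numbered 4 and voom with median-of-ratios library sizes were added after seeing the data.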

Additional observations from a re-analysis of the deposited data

Results flagged for a closer look

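In groups of 4 libraries, a library was marked when its gap to the nearest other value was an unusually large part of the group's range by Dixon's criterion. Chance marks about 1 in 20 groups, and 4 of 90 groups of values of named genes were marked. Kif23 in control library 4 was low at 1.01 FPKM, where the other control libraries were at 2.30 to 2.56 FPKM. Kif21b in ANG II library 4 was high at 2.75 FPKM, where the others were at 2.03 to 2.07 FPKM. Kif9 in ANG II library 4 was high at 0.570 FPKM, where the others were at 0.257 to 0.299 FPKM, which is 9 to 21 fragments over the group. Mapk8ip1 in ANG II library 1 was high at 3.43 FPKM, where the others were at 2.56 to 2.62 FPKM. Kif21b was called and Kif9 was not with all 8 libraries.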

How the results depend on the processing

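Under all 22 alternatives the mitotic count (10) stayed between 9 and 11 with 0 lower, and 17 spindle partners were called higher, with 1 lower (Cenpf) under both median-of-ratios settings, quantile normalization and without control 4. The 5 transport calls became 1 with median-of-ratios scaling, 2 with quantile normalization (1 of them lower), 3 without mitochondrial and the 10 most abundant genes, 3 with voom on median-of-ratios library sizes (1 lower), 3 without both libraries numbered 4, 9 with no fold threshold (8 higher and 1 lower, beside 28.4% and 4.91% of all genes) and 0 with a log2 fold change above 1, and ranged from 3 to 5 with a library left out. The other kinesins, with 1 call, had 2 with median of ratios or quantile normalization (1 higher, 1 lower), 2 with no fold threshold, 3 with voom (all higher), 3 with voom on median-of-ratios library sizes (1 higher, 2 lower), 0 above a log2 fold change of 1, and 1 to 2 with a library left out. Motor partners, with 2 calls, had 1 with median of ratios, quantile normalization or a log2 fold change above 1 and 16 with no fold threshold. The median of the mitotic genes, 1.11, was 1.90 with a pseudocount of 0.1, 2.07 with voom and 1.83 with voom on median-of-ratios library sizes. The median of the transport genes, 0.23, was 0.0745 with median of ratios, 0.0284 with quantile normalization and 0.0762 with voom on median-of-ratios library sizes. The cause of these shifts was not tested. Of the named genes' fold changes, 906 values kept direction and side of the threshold, 34 lost and 25 gained a call, and 15 changed sign, in genes that were not called: Kif1c (-0.19 median of ratios, -0.14 quantile, -0.10 without mitochondrial and top genes, -0.19 voom on median-of-ratios library sizes), Kif2a (-0.0734, -0.12 and, with that voom, -0.0852), Kifc3 (-0.0352, -0.0094 and -0.0372 likewise), Kifc2 (-0.15 quantile), Kif26a (-0.0021 quantile), Kif19a (0.0211 without control 2, 0.0532 without ANG II 4) and Kif13a (0.0090 without ANG II 3).

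The replicate numbers did not pair the libraries: deviations of same-numbered libraries from their group means correlated at -0.0163, 0.062, -0.032 and -0.00929, and 1 library in 4 correlated best with its own number. With the replicate block, 10 mitotic, 4 transport (Kif3c lost) and 2 other kinesins (Kifc5b added) were called, all higher, beside 13.9% of all genes called higher and 1.38% lower. At this depth, mitotic members in control rested on 0 to 52 fragments, and Kif17, Kif12, Kif27 and Kif2b were too low to compare.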
